A study of Rattus norvegicus with 6 samples.

Results

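The heat shock proteins and their DNAJ co-chaperones were compared between arteriolar smooth muscle cells and mid-capillary pericytes of the rat brain cortex. Members were taken by gene symbol: the small heat shock proteins (Hspb genes and Cryab), the HSP70 and HSP110 proteins (Hspa genes and Hsph1), the HSP90 proteins, the mitochondrial chaperonin pair Hspd1 and Hspe1, Hspbp1, the BAG genes, the heat shock factors Hsf1, Hsf2 and Hsf4, and the Dnaja, Dnajb and Dnajc genes. The rule found 79 of the 14607 genes measured, 42 of them DNAJ genes.

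The RNA-Seq samples were 3 of vascular smooth muscle cells (VSMCs) from arterioles and 3 of mid-capillary pericytes (mcPCs), all from male Sprague-Dawley rats aged 4 to 5 weeks, with the cortices of several animals pooled for each isolation. Both cell types came from the same mild digestion, the warm step of the procedure. mcPCs were the filtrate cells left after endothelial, microglial, astrocyte and oligodendrocyte cells had been removed with antibodies. VSMCs came from arterioles held back by the filter, which went through a further, harsher digestion with Liberase TM and trypsin at room temperature and were then sorted with the lectin GSA-FITC. Cell type and isolation procedure therefore cannot be told apart in any value below. The data used here are the authors' means of each cell type, without values of single samples. No spread between isolations, no SD and no test can be given, and each difference below is one between those means.

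Chaperones bind proteins that are not yet folded or have lost their fold. Small heat shock proteins hold such proteins without using ATP, and HSP70 proteins bind and release them in cycles of ATP hydrolysis that DNAJ proteins start and that HSP110, Hspbp1 and BAG proteins end by exchanging the nucleotide. HSP90 and the chaperonins take over later folding steps, and the heat shock factor Hsf1 drives transcription of the inducible members under stress. In smooth muscle, small heat shock proteins and Bag3 are known to protect the actin and filament network of the contracting cell.

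Levels are given as TPM (transcripts per M, with M for 1e6), which are corrected for transcript length. Differences are log2 ratios of the authors' mean normalized counts, mcPCs over VSMCs, after adding 1 to each mean. A negative value is higher in VSMCs, and the median over all genes was 0.01. A gene was counted as higher in a cell type from 2-fold on. The 95% intervals are exact binomial intervals of the read numbers and cover counting error only, not the spread between isolations. The depth behind the means was 62.0 M reads in a VSMC sample and 48.0 M in a mcPC sample. The members' means rested on 2.67 to 136731 reads per VSMC sample and on 2.67 to 37192 reads per mcPC sample. In bulk samples, fewer cells that use a gene and less of its RNA in each cell cannot be told apart.

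The labels were set beside marker lists. These were written with earlier results of these data known, so their outcome is no independent check. All 14 smooth muscle genes were higher in VSMCs, with a summed level of 62341 TPM against 328 TPM in mcPCs, and all 8 pericyte genes were higher in mcPCs, with 678 and 4412 TPM. The mcPC means also held much red cell RNA: 23 of the 24 erythrocyte genes in the table were higher there, and the list took 54.5% of all TPM in mcPCs against 0.739% in VSMCs. TPM adds up to the same total in each cell type, so a share taken by these genes is missing from the others. The median level of all genes was 12.7 TPM in the VSMC means but 3.59 in the mcPC means, and how much of this distance the erythrocyte genes made up was not tested. TPM values of the cell types should be read against these medians. Of the lists of other cells in the table, 10 of 14 endothelial, 7 of 7 microglial and leukocyte, 4 of 4 astrocyte, 3 of 3 neuronal and 5 of 6 oligodendrocyte genes were higher in mcPCs. Their summed levels in mcPCs were 248, 35.5, 15.7, 19.0 and 18.4 TPM. In VSMCs they were 651, 1.53, 0.582, 0.659 and 19.8 TPM. Most of the endothelial 651 TPM came from Esam (487 TPM) and Slc2a1 (115 TPM), which were not past 2-fold. Cldn5, among the 10 endothelial genes higher in mcPCs, had 0.643 TPM in VSMCs and 15.4 in mcPCs. The part of these other cells in the results was not tested.

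Of the 79 members, 16 were at least 2-fold higher in VSMCs and 5 in mcPCs, and 58 lay between. The members' shares were 20.3% and 6.33%, whereas over all genes 13.8% passed 2-fold on the VSMC side and 21.6% on the mcPC side. All genes held more genes of low level: 2389 of 14607 lay under 0.8 TPM in VSMCs, against 5 of the 79 members. The paper left out genes under that level because of transcripts from unwanted cells. The shares of all genes without them were not counted, so their part in the distance between members and all genes was not tested. At 4-fold, 10 members were higher in VSMCs, against 5.64% of all genes, and at 16-fold 5 members, against 1.49% of all genes. The median log2 ratio of the members was -0.23. Scales set by the total shift all genes to the VSMC side. On TPM as deposited, where the median of all genes was -1.72, 73 members were higher in VSMCs and 0 in mcPCs. On estimated counts brought to the same total, where it was -0.55, 34 and 3 members were. The shares of all genes past 2-fold were not counted on these scales, so these counts are no result about the members. The members made up 1.10% of all TPM in VSMCs and 0.122% in mcPCs, or 0.267% in mcPCs once the erythrocyte list was left out.

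The members past 2-fold on the VSMC side lay mostly outside the DNAJ genes. Among the 37 other members, 12 (32.4%) passed 2-fold on the VSMC side and 4 (10.8%) on the mcPC side. Their median log2 ratio was -0.59. Among the 42 DNAJ genes it was 4 (9.52%) and 1 (2.38%), with a median of -0.14. Over all genes the shares were 13.8% and 21.6%. On the mcPC side both groups lay under all genes, the DNAJ genes further. The most abundant members also differed between the cell types. In VSMCs Hspb1, Hspa1a and Hspa1b held 45.1% of the members' TPM. In mcPCs the top places went to Hsp90ab1, Hspe1 and Hspa5, with 33.9%.

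**Figure D1:**
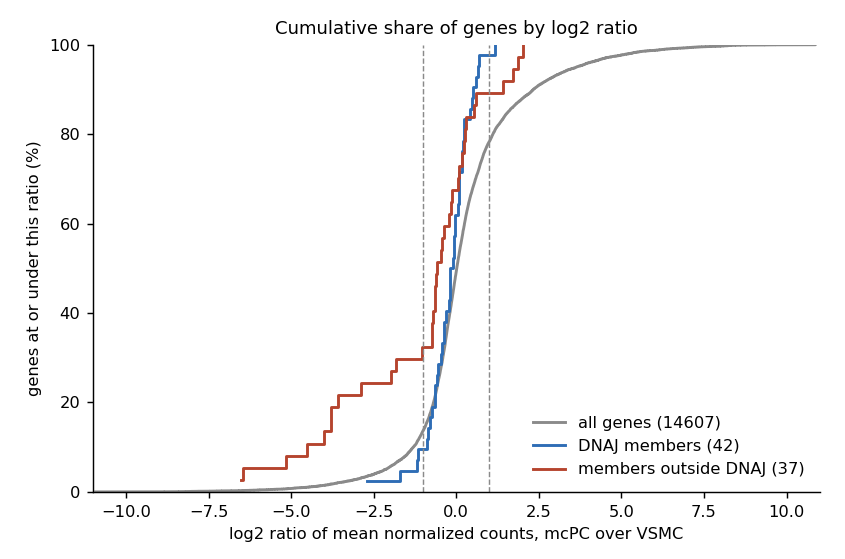
Cumulative share of genes (y axis, %) at or under each log2 ratio of mean normalized counts, mcPC over VSMC (x axis), for all 14607 genes, the 42 DNAJ members and the 37 other members, with dashed lines at 2-fold. The curve of the members outside DNAJ leaves that of all genes on the VSMC side, where 12 of 37 lie past 2-fold, whereas the DNAJ curve is steep around 0.

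The small heat shock proteins differed most. Of the 8 members, 6 (75.0%) were higher in VSMCs, each by more than 4-fold, beside 13.8% of all genes past 2-fold there. The other 2, Hspb9 and Hspb11, were not past 2-fold. The median log2 ratio of the class was -4.15. Hspb7, a chaperone of heart and vessel muscle that binds filamin, stood at 50.1 TPM in VSMCs but 0.148 in mcPCs, with a log2 ratio of -6.51 (95% counting interval -6.89 to -6.14). It held the 45th lowest ratio of all 14607 genes. Cryab (alphaB-crystallin, a partner of desmin filaments) came next, with 168 and 0.515 TPM and a log2 ratio of -6.46 (-6.73 to -6.20). The mcPC means of both genes rested on few reads, 20.3 per sample for Hspb7 and 40.7 for Cryab, but their counting intervals stayed under -6.

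Hspb2, a muscle small heat shock protein whose gene lies next to Cryab, stood at 220 TPM in VSMCs but 1.76 in mcPCs (log2 ratio -5.15, counting interval -5.41 to -4.91). Cryab and Hspb2 did not keep the same proportion: the ratio of Cryab to Hspb2 TPM was 0.766 in VSMCs and 0.293 in mcPCs. Hspb1 (HSP27), which caps actin filaments and is phosphorylated under stress, was the most abundant member in VSMCs with 1918 TPM. In mcPCs it had 24.2 TPM, the highest level of the class there. Its log2 ratio was -4.51 (-4.56 to -4.46), or 22.8-fold higher in VSMCs.

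Hspb8, the small heat shock protein that works with Bag3, had 164 and 3.39 TPM and a log2 ratio of -3.79 (-3.87 to -3.70). Hspb6 (HSP20), which is phosphorylated when smooth muscle relaxes through cyclic nucleotides, had 117 and 4.54 TPM and a log2 ratio of -2.88 (-2.97 to -2.80). In mcPCs these genes, unlike Hspb1, lay near the median level of all genes, at the 48.5th and 56.0th percentile, whereas in VSMCs they lay at the 93.6th and 91.2nd. Hspb11 carries the family name but works in intraflagellar transport of cilia, and its log2 ratio was 0.31 (0.14 to 0.47). Hspb9, a testis gene, was hardly detected, with 2.67 reads per sample in each cell type, so that its log2 ratio of 0.55 had a counting interval of -1.07 to 2.16. Without Hspb9 and Hspb11 the median log2 ratio of the class was -4.83.

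**Figure D2:**
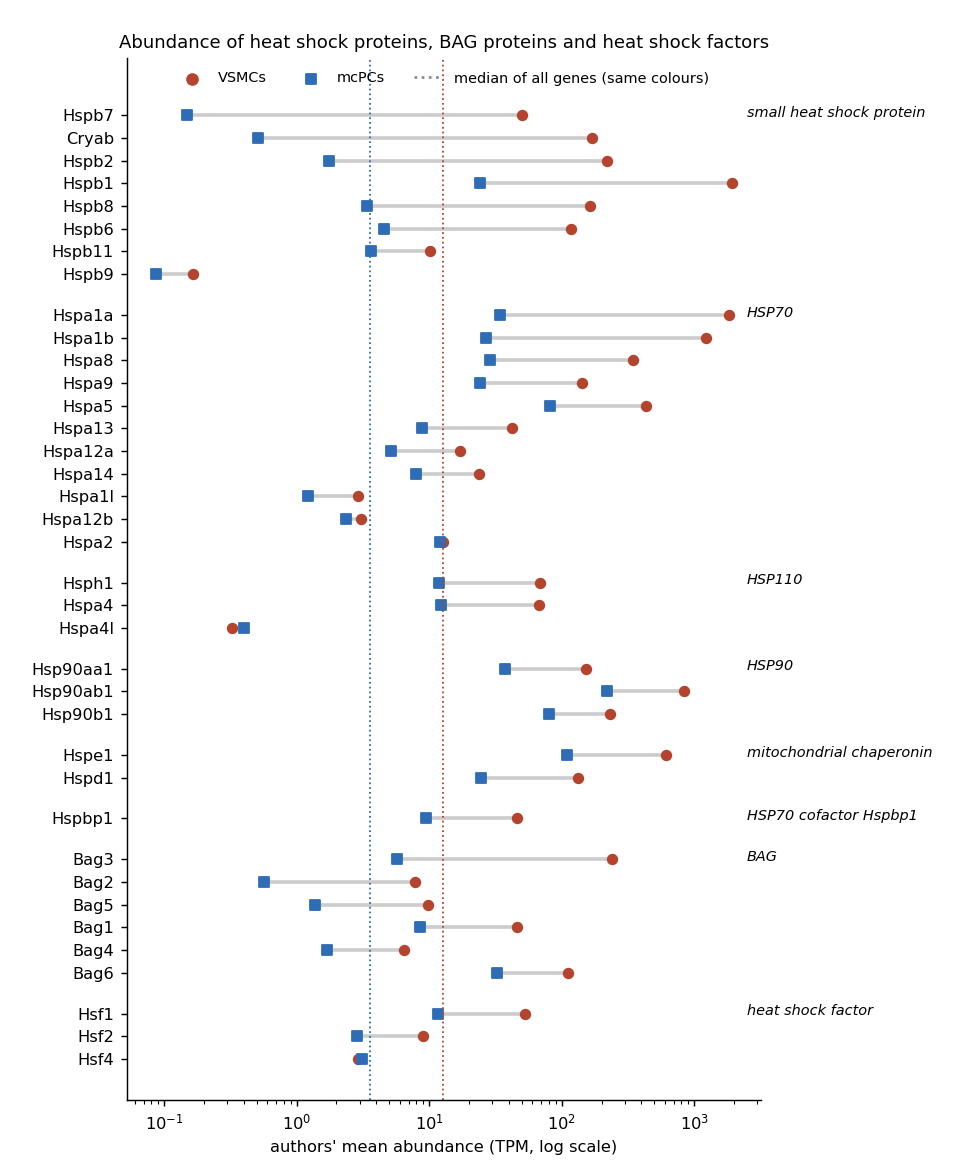
Mean TPM (x axis, log scale) of the 37 members outside DNAJ in VSMCs (circles) and mcPCs (squares), grouped by class, with dotted lines at the median of all genes in VSMCs (12.7 TPM) and in mcPCs (3.59 TPM). The 6 muscle small heat shock proteins, Hspa1a, Hspa1b and Bag3 have the longest distances, while Hspa2, Hspa12b and Hsf4 have nearly the same TPM in both cell types although the typical gene does not.

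The BAG proteins link HSP70 to degradation or to other clients. Of 6, 3 (50.0%) were higher in VSMCs, beside 13.8% of all genes, and none in mcPCs, beside 21.6%. Their median log2 ratio was -0.83. Bag3, which hands damaged filament proteins to autophagy together with Hspb8, stood at 241 TPM in VSMCs but 5.74 in mcPCs, a log2 ratio of -3.60 (-3.65 to -3.54). Its proportion to Hspb8 was close in both cell types, with Hspb8 to Bag3 TPM ratios of 0.679 and 0.592. Bag1, which sends HSP70 clients to the proteasome, differed less, with 45.8 and 8.56 TPM and a log2 ratio of -0.61. The order of both genes was turned round: Bag3 had 5.26 times the TPM of Bag1 in VSMCs and 0.670 times in mcPCs.

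Bag2, an inhibitor of the ubiquitin ligase CHIP, was low in both cell types, with 7.79 and 0.564 TPM, and had a log2 ratio of -1.99 (-2.23 to -1.76). Bag5 was the member nearest to the 2-fold limit from inside, with a log2 ratio of -1.04 and a counting interval of -1.18 to -0.91 that reached across it. Bag4, a silencer of death receptors, had a log2 ratio of -0.16, and Bag6, which guards membrane proteins before their insertion, one of 0.04. Bag6 was also among the most abundant genes of the class, with 111 and 32.3 TPM.

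Heat shock factors bind repeats of the unit GAA and its reverse TTC, spaced by 2 bases. The 250 bases before the start of each gene, taken from RefSeq on the rat build GRCr8, were searched on both strands for a pair of such units, written GAANNTTC or TTCNNGAA, and for 3 units in a row, which contain such pairs. Of the 79 members, 61 matched a promoter of this table. Cryab, Hspb2, Hspa1b, Dnajb4, Hsp90aa1, Hsf1 and Hsf4 were among the others. The pair GAANNTTC was in 13 of the 61 (21.3%) and in 7.02% of all 27457 promoters, and TTCNNGAA in 7 (11.5%) and in 7.23%. Over the 10884 promoters of genes measured here the shares were 4.64% and 5.94%. A match is a run of letters and not a proof of binding, and a missing match is no proof that a site is absent. The members at least 2-fold higher in VSMCs with GAANNTTC but without 3 units are printed below from 5′ to 3′ on the strand of the gene, with GAANNTTC in capitals, since the same letters recur in them. Being chosen by their ratio, they say nothing of how the pair goes with the ratio: the other members with GAANNTTC and no 3 units, Hspa9, Dnaja1, Dnajc18 and Dnajb6, had log2 ratios from -0.73 to 0.08. Hspb6 also held 1 TTCNNGAA, which is not shown. The stretches are chr12:26432378-26432455 (minus strand) for Hspb1, chr12:45837260-45837307 (plus) for Hspb8, chr1:192533303-192533360 (plus) for Bag3, chr1:94934198-94934255 (plus) for Hspb6 and chr19:41431142-41431177 (minus) for Dnajb1.
Hspb1: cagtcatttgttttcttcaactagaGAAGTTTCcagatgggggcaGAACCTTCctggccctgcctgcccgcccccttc
Hspb8: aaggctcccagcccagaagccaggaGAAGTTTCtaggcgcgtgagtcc
Bag3: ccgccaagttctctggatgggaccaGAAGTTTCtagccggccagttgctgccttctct
Hspb6: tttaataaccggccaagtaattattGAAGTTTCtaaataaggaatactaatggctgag
Dnajb1: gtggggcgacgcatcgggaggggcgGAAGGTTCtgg

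The first GAANNTTC of Hspb1 and those of Hspb8, Bag3 and Hspb6 were written alike, GAAGTTTC. They began 129, 23, 132 and 149 bases before the gene's start. This form, looked up after the sequences were seen, was in 5 of the 61 member promoters on either strand (8.20%) and in 1.26% of all promoters. Over the promoters of measured genes it was in 0.854%. Among the 5 are Hspb1, Hspb8, Bag3 and Hspb6, from which the form was read. Their share is raised by that choice and is no support for the form. The only other member with it was Hspa9, whose log2 ratio was -0.73. Hspb8 and Bag3 shared the 3 bases after the pair as well. The CArG box, the site of serum response factor in smooth muscle genes, was found in 1 of the 61 members (Dnajc16, log2 ratio 0.20), or 1.64%. It was in 1.501% of all promoters and in 1.23% of those of measured genes.

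In the HSP70 family, 3 of 11 members (27.3%) were higher in VSMCs, and 2 (18.2%) were higher in mcPCs. Over all genes the shares were 13.8% and 21.6%, so the mcPC share was near that of all genes. The stress-inducible pair came first. Hspa1a had 1816 TPM in VSMCs but 34.4 in mcPCs, with a log2 ratio of -4.01 (-4.03 to -3.98), and Hspa1b had 1234 and 27.0 TPM with a log2 ratio of -3.78 (-3.81 to -3.76). Their sequences are nearly identical and their genes lie side by side, so the split of reads between them, and with the related Hspa1l, is uncertain. Hspa1a had the most reads of any member, 136731 per VSMC sample. Hspa1l, a testis gene that starts head to head with Hspa1a, stayed at 2.89 and 1.21 TPM and had a log2 ratio of 0.61 (0.45 to 0.76).

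Hspa8 (HSC70), the form that every cell makes without stress, was higher in VSMCs as well, with 346 and 28.9 TPM and a log2 ratio of -1.83 (-1.86 to -1.80). The proportion of the inducible pair to it was unequal: Hspa1a and Hspa1b together had 8.81 times the TPM of Hspa8 in VSMCs and 2.13 times in mcPCs. Hspb1 had 5.54 times the TPM of Hspa8 in VSMCs and 0.840 times in mcPCs. The members of the organelles differed less. Hspa5 (BiP), the HSP70 of the endoplasmic reticulum, stood at 432 and 81.5 TPM with a log2 ratio of -0.59, and Hspa9 (mortalin), that of mitochondria, at 142 and 24.4 TPM with -0.73. Hspa13, a microsomal form, had a log2 ratio of -0.42, Hspa14, which sits with Dnajc2 on the ribosome, one of 0.25, and the distant relative Hspa12a one of 0.09.

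The other 2 HSP70 genes past 2-fold went the other way. Hspa2, known from spermatogenesis, had almost the same level in both, 12.8 TPM in VSMCs beside 12.05 in mcPCs, which is at the 50.2nd percentile of genes in VSMCs and the 79.5th in mcPCs, and its log2 ratio was 1.72 (1.66 to 1.78). Hspa12b, which is known from endothelial cells, had 3.07 and 2.35 TPM and a log2 ratio of 1.42 (1.29 to 1.55). The endothelial list moved with it, as given above, and its part in this value was not tested. On TPM as deposited the ratios of both genes were slightly negative, at -0.083 and -0.37.

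The HSP110 proteins, exchange factors of HSP70, were split. Hsph1 (log2 ratio -0.75) and Hspa4 (-0.64) had 68.8 and 67.4 TPM in VSMCs and 11.9 and 12.3 TPM in mcPCs. Hspa4l, a testis form, had the highest ratio of all members, 2.01 (1.73 to 2.29), at levels of only 0.328 and 0.398 TPM. Hspbp1, another exchange factor, had a log2 ratio of -0.46.

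The HSP90 proteins were abundant and close in both cell types, and none was past 2-fold. Hsp90ab1, the constitutive cytosolic form, was the most abundant member in mcPCs with 221 TPM, against 832 TPM in VSMCs, and its log2 ratio was -0.12 (-0.13 to -0.11). Hsp90aa1, the inducible form, had 152 and 37.3 TPM and a log2 ratio of -0.22 (-0.25 to -0.20). The ratio of Hsp90aa1 to Hsp90ab1 TPM was 0.183 in VSMCs and 0.169 in mcPCs, so the inducible form did not share the distance seen for Hspa1a and Hspa1b. Hsp90b1 (GRP94), the form of the endoplasmic reticulum, had 233 and 80.0 TPM and a log2 ratio of 0.28 (0.26 to 0.29).

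The mitochondrial chaperonin consists of Hspd1 (HSP60) and its lid Hspe1 (HSP10), whose genes share a promoter head to head. Hspd1 had 134 and 24.5 TPM and a log2 ratio of -0.65, and Hspe1 616 and 109 TPM and -0.70. The ratio of Hspd1 to Hspe1 TPM was 0.217 in VSMCs and 0.225 in mcPCs. The TPM of Hspe1 rests on an effective length of 72.3 bases, which makes its level uncertain.

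A run of 3 heat shock units was found before 4 of the 61 members, Hspa8, Hsph1, Hspe1 and Hspd1 (6.56%). It was in 0.597% of all promoters and in 0.423% of those of measured genes. Hspe1 and Hspd1 share 1 such stretch with 4 units, which 0.0401% of all promoters and 0.0276% of those of measured genes hold. The stretches are printed with the units in capitals to compare them with the pairs above, on the plus strand of GRCr8 at chr8:50080276-50080496, chr12:10427307-10427367 and chr9:64084237-64084304.
Hspa8: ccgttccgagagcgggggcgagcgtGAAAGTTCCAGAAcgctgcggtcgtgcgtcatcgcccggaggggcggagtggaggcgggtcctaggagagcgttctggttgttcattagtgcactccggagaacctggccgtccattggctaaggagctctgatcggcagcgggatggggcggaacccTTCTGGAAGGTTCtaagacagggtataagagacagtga
Hsph1: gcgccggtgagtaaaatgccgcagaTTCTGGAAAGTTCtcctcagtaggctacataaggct
Hspe1: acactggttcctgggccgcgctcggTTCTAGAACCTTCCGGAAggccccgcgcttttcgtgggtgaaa

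The log2 ratios of these 4 genes ran from -1.83 to -0.65. Their median was -0.72, with 1 of the 4 past 2-fold on the VSMC side. The 57 matched members without 3 units had a median of -0.18 and ran from -6.51 to 2.01, with 11 past 2-fold on the VSMC side and 3 on the mcPC side, so the ratios of the 4 lay inside the range of the others. The promoter window of Hspa1a held neither a pair nor 3 units. The search took only exact units within the window before the RefSeq start. A site with an inexact unit or outside the window would be missed, so this is no proof that Hspa1a lacks one.

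Among the heat shock factors, Hsf1, the main activator of these genes, had 52.5 TPM in VSMCs but 11.7 in mcPCs and a log2 ratio of -0.36 (-0.40 to -0.32). Hsf2 had 8.95 and 2.85 TPM and a log2 ratio of 0.16. Hsf4, known from the lens, had 2.92 and 3.13 TPM and a log2 ratio of 1.87 (1.68 to 2.07). It was the only factor past 2-fold, at a low level in both cell types.

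**Figure D3:**
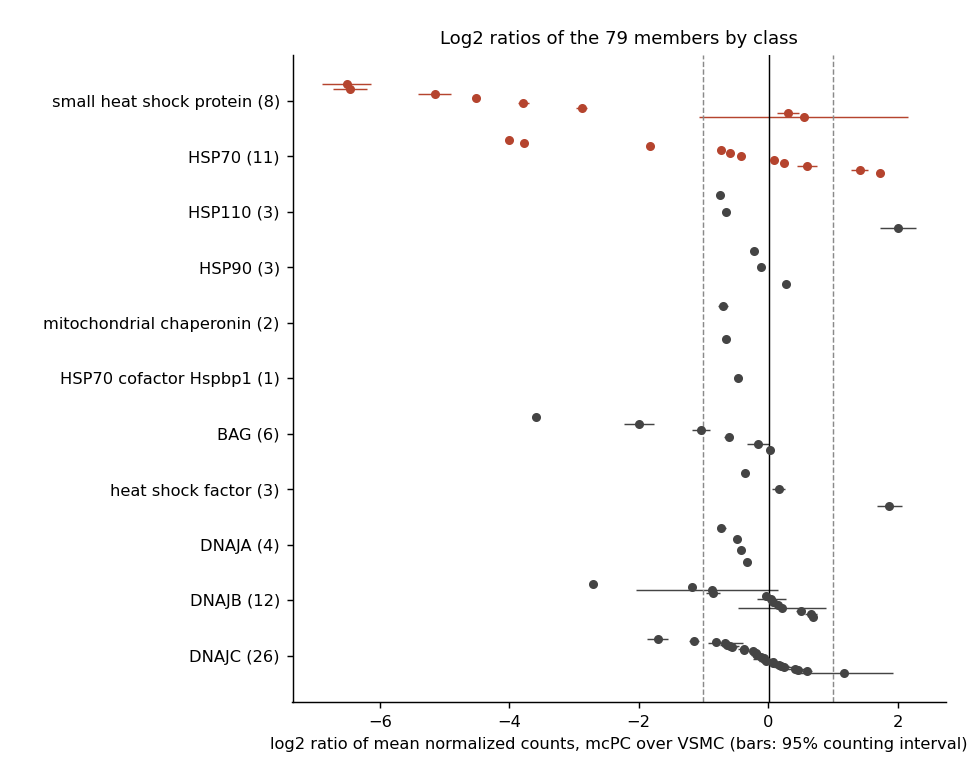
Log2 ratio of mean normalized counts, mcPC over VSMC (x axis), of each of the 79 members by class (y axis, number of members in brackets), with 95% counting intervals as bars, dashed lines at 2-fold and a line at the median of all genes. The small heat shock and HSP70 classes, in red, reach furthest to the VSMC side. There 6 of 8 and 3 of 11 lie past 2-fold, beside 13.8% of all genes. The wide bars belong to genes with few reads.

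The DNAJ genes hold the largest number of members, and most of them differed little. None of the 4 DNAJA genes passed 2-fold in either direction, and 2 of 12 DNAJB (16.7%) and 2 of 26 DNAJC genes (7.69%) were higher in VSMCs. Over all genes 13.8% were, which is near the share of the DNAJB genes. Dnajb4, a heat-inducible partner of cytosolic HSP70, stood out with 202 TPM in VSMCs but 8.88 in mcPCs, a log2 ratio of -2.70 (-2.75 to -2.65). Dnajb1 (HSP40), the classical inducible partner of HSP70, was higher by less, with 101 and 13.1 TPM and a log2 ratio of -1.18 (-1.22 to -1.13). The order of the pair was turned round: Dnajb4 had 1.998 times the TPM of Dnajb1 in VSMCs and 0.680 times in mcPCs.

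The other DNAJ genes higher in VSMCs were less abundant. Dnajc6 (auxilin), which uncoats clathrin vesicles with Hspa8, had 3.61 and 0.324 TPM and a log2 ratio of -1.71 (-1.87 to -1.54). Dnajc21, a factor of ribosome assembly, had 34.8 and 4.44 TPM and a log2 ratio of -1.15 (-1.23 to -1.07). Next in order came Dnajb7, just outside 2-fold at -0.87. It had 13.3 reads per VSMC sample and 3.33 per mcPC sample, and its counting interval of -2.04 to 0.15 reached both past 2-fold and past 0.

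The abundant general co-chaperones lay between. Dnaja1, the most abundant DNAJA gene, had 183 and 39.7 TPM and a log2 ratio of -0.42, and Dnaja2 had 75.2 and 15.4 TPM and -0.48. Dnajc8, a spliceosome protein, had 127 and 31.5 TPM and -0.19. Dnajb2, which passes clients to the proteasome, had 117 and 36.8 TPM and 0.16. In the same range were Dnajc7, which bridges HSP70 and HSP90 (0.08), the synaptic vesicle protein Dnajc5 (-0.38) and 2 proteins of the endoplasmic reticulum, the reductase Dnajc10 (-0.37) and Dnajb11 (-0.04).

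On the mcPC side only Dnajc22 passed 2-fold, with a log2 ratio of 1.17. It had 9.67 and 11.7 reads per sample, and its counting interval of 0.42 to 1.94 reached across the limit. After it came Dnajb12 (0.69), Dnajb5 (0.66), Dnajc1 (0.60) and Dnajb9 (0.50). Dnajb12, Dnajc1 and Dnajb9 work at the endoplasmic reticulum.

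The lists of related genes were read in the same way, beside 13.8% and 21.6% of all genes past 2-fold. The heat shock response list, 15 genes that are all members, had 9 higher in VSMCs and 1, Hspa4l, in mcPCs, with a median log2 ratio of -1.83. The other 5 (Hsph1, Hspe1, Hspd1, Dnaja1 and Hsp90aa1) lay between -0.75 and -0.22, so the inducible genes were not shifted by one amount. The list was written with these genes' results known and is no independent support.

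Most genes of the partner, cytosolic chaperonin and mitochondrial lists were not past 2-fold, with medians on the VSMC side of the 0.01 of all genes. Of 21 partners of HSP70 and HSP90, 2 were higher in VSMCs, the myosin chaperone Unc45a (-1.07) and Cdc37l1 (-1.06), and none in mcPCs, with a median of -0.35. Of 14 genes of the cytosolic chaperonin TRiC and prefoldin, 1 was higher in VSMCs (Tcp1, -1.01), with a median of -0.24. The mitochondrial list, 9 of whose 16 genes are members, had a median of -0.51, and its 7 other genes one of -0.13. In it 1 gene was past 2-fold, Hscb, a co-chaperone of iron-sulfur cluster assembly, with 2.06 on the mcPC side.

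The endoplasmic reticulum list had its median on the other side. None of its 19 genes was higher in VSMCs and 3 were higher in mcPCs, Sdf2l1 (3.23), the disulfide isomerase Pdia6 (1.10) and Creld2 (1.03), with a median of 0.46. The 3 genes are 15.8% of the list, under the 21.6% of all genes. All 3 are outside the symbol rule, and they are 27.3% of the list's 11 such genes, whose median was 0.73. On TPM relative to the median gene 1 of the 3 was past 2-fold, since Pdia6 had 0.99 and Creld2 0.94. Its 8 members of the symbol rule ran from -0.59 for Hspa5 to 0.60 for Dnajc1. The ratio of Hspa5 to Hsp90b1 TPM was 1.86 in VSMCs and 1.02 in mcPCs.

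Partners of Bag3 in the autophagy of filament proteins were mixed. Of 11 genes, 5 were higher in VSMCs: Bag3, Hspb8 and Hspa8 from the members, and Synpo2 (-6.92), which links Bag3 to the membrane and is a smooth muscle marker too, and the actin crosslinker Flna (-3.62). The ubiquitin ligase Stub1 (-0.57) and the receptor Sqstm1 (-0.16) were not past 2-fold. Map1lc3b (1.28), the autophagosome protein, was higher in mcPCs.

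**Figure D4:**
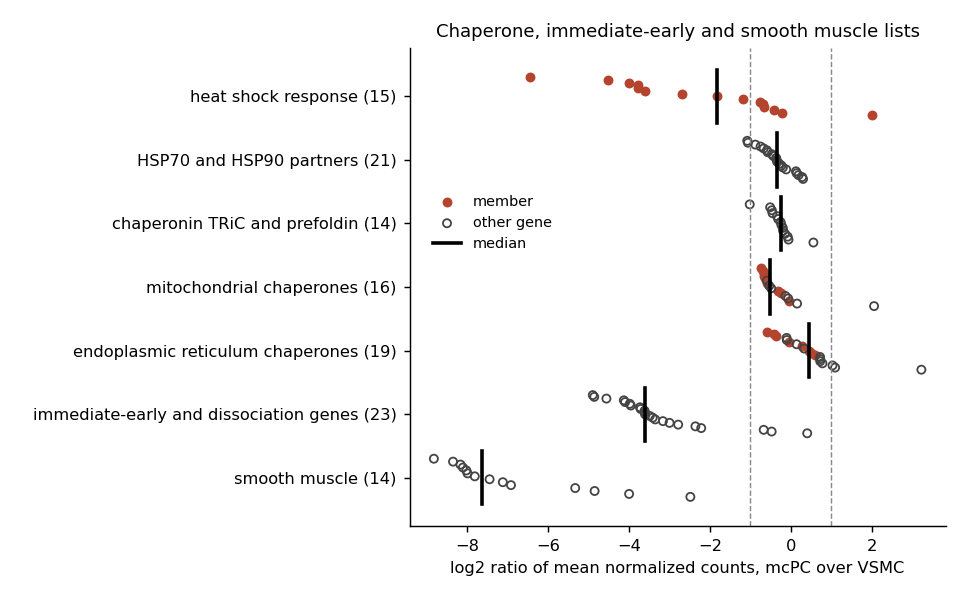
Log2 ratio of mean normalized counts, mcPC over VSMC (x axis), of the genes of 7 lists (y axis, number of genes in brackets), with members filled, other genes open, a bar at each list's median and dashed lines at 2-fold. The heat shock response list spreads from -6.46 to 2.01, the 4 other chaperone lists lie mostly within 2-fold, and 20 of 23 immediate-early and 14 of 14 smooth muscle genes lie past 2-fold on the VSMC side.

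A second set of genes moved with the members that were higher in VSMCs. Immediate-early genes, which rise within minutes of a stimulus and can rise during tissue dissociation, were higher in VSMCs for 20 of the 23 in the table, with a median log2 ratio of -3.60. Their summed level was 25734 TPM in VSMCs but 570 in mcPCs. Fos stood at 4441 and 45.2 TPM and Atf3 at 652 and 8.15 TPM, with log2 ratios of -4.86 and -4.56. The list ran from -4.89 to 0.41 and the smooth muscle list, with a median of -7.63, from -8.82 to -2.48. Of the 10 members at least 4-fold higher in VSMCs, Hspb7, Cryab and Hspb2 lay lower than any immediate-early gene and within the smooth muscle range. The other 7, Hspb1, Hspa1a, Hspb8, Hspa1b, Bag3, Hspb6 and Dnajb4, lay within the ranges of both lists. In the smooth muscle list 12 of 14 genes were past 16-fold on the VSMC side, and Smtn alone set its end at -2.48. Hspb8, Hspa1b, Bag3, Hspb6 and Dnajb4 were inside that range only through Smtn. In the immediate-early list 5 of 23 genes were past 16-fold, and Egr3 set its end at 0.41. Lying within both ranges therefore does not tell the lists apart. The part of either list in the members' ratios was not tested.

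The scales did not treat both sides alike. The median of all genes was -1.72 on TPM as deposited and -0.55 on estimated counts brought to the same total. Such shifts add genes to the VSMC side and take them from the mcPC side. The counts below therefore do not compare how firm the sides are. The same 16 members were at least 2-fold higher in VSMCs on each of 6 scales. On the mcPC side 0 members were past 2-fold on all 6, and 3, Hspa4l, Hsf4 and Hspa2, on the 5 scales other than TPM as deposited. On TPM relative to the median gene, 16 members were higher in VSMCs and 6 in mcPCs, beside 13.3% and 22.4% of all genes.

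**Figure D5:**
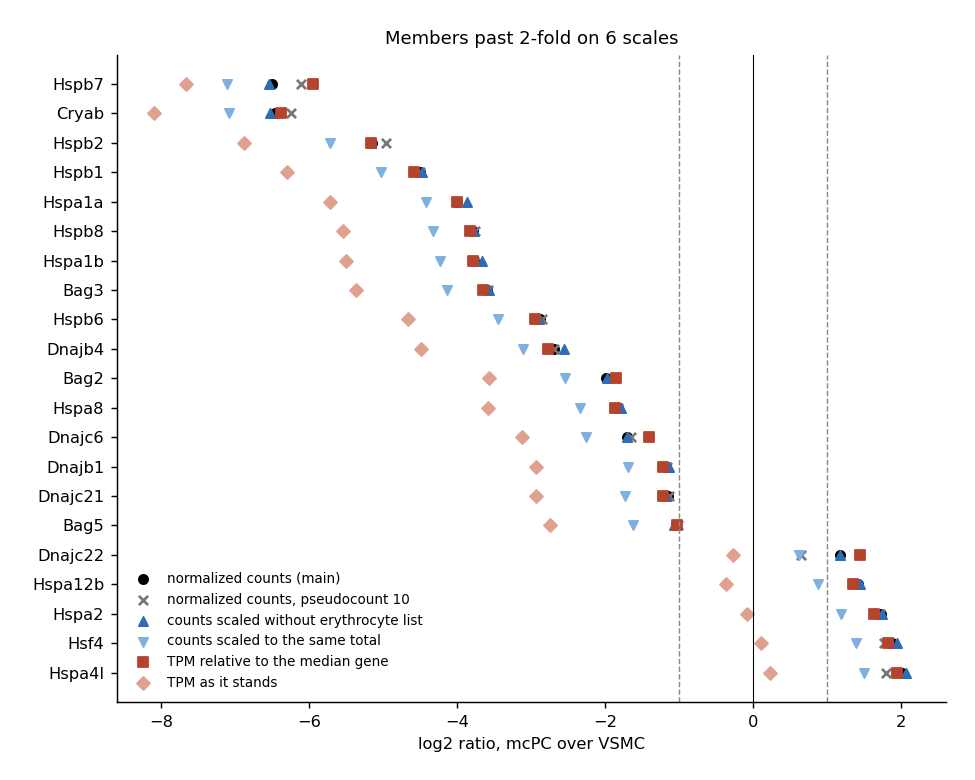
Log2 ratio, mcPC over VSMC (x axis), of the 21 members past 2-fold on mean normalized counts (y axis) under 6 scales, marked by symbol, with dashed lines at 2-fold. The 16 members higher in VSMCs stay left of -1 on every scale. The 5 on the mcPC side move to between -0.37 and 0.22 on TPM as it stands, where the median of all genes was -1.72.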

How the data were processed

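RNA-Seq data of 3 VSMC and 3 mcPC samples were used, grouped by the sample titles. Polyadenylated RNA was made into stranded libraries, with 4 sequencing runs for each. Abundances came from Salmon (version 0.8.0 per the submitters' processing notes), run by the authors against the cDNA of Ensembl for Rnor_6.0. The authors brought them to gene level with tximport, normalized them with DESeq2 and kept genes with at least 1 read in every sample. The deposited table gives means of each cell type. Its TPM values are the authors' mean abundances. Its estimated counts are the authors' means per run, and were multiplied by 4 to give reads per sample: 69.8% of them for VSMCs and 71.5% for mcPCs are whole multiples of 1 read in the 12 runs of a cell type, with a tolerance of 0.01 of that unit. Its normalized counts, a signal without unit, were made by the authors by dividing counts by DESeq2's factors. Effective lengths are deposited too. The log2 fold changes with their standard errors and the p-values in the table are the authors' own comparison and were not used.

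From the mean normalized counts, log2 ratios of mcPCs over VSMCs were computed with a pseudocount of 1. TPM ratios used a pseudocount of 0.1. The fit to counts per sample foreseen for such values was not run, as means hold no spread between samples. Whether the samples came from separate animals bears on no value here, since no p-value is given. Intervals are Clopper-Pearson intervals at 95% of the reads summed over the samples of a cell type and cover counting error only, since the reads carry no molecular identifiers. A call was a ratio of at least 2-fold. The members and gene lists were chosen with earlier results of these data known. Named were all members outside DNAJ and, of the DNAJ genes, the 10 with the highest TPM, the 5 lowest and the 5 highest ratios, and from the lists the genes a result turns on. Promoters came from RefSeq (GRCr8), matched by gene identifier and, for members without such a match, by gene symbol. Coordinates of the genes in the files were not used, being of another build. Protein sequences were not analysed here. Alternatives were other scales, a pseudocount of 10, minimum levels of 0.8 TPM in VSMCs or 20 reads per sample, and counts without DNAJC or without Hspa1a and Hspa1b. The steps were tested on simulated data. The software was Python 3.11.15 with scipy 1.17.1, pandas 2.3.3, numpy 2.4.6 and matplotlib 3.10.9.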

Additional observations from a re-analysis of the deposited data

How the results depend on the processing

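The scale decided more than any filter. On TPM as deposited, 73 members were at least 2-fold higher in VSMCs and 0 in mcPCs, with a median log2 ratio of -2.03 (all genes -1.72), and Dnajc22, Hspa12b and Hspa2 turned to -0.28, -0.37 and -0.083. With estimated counts scaled to the same total, 34 and 3 members were past 2-fold, with a median of -0.79 (all genes -0.55). The shares of all genes past 2-fold on these scales were not counted. With at least 0.8 TPM in VSMCs, 3 members were higher in mcPCs and the median was -0.34 (all genes -0.11). The shares of all genes past 2-fold were not counted with this filter, so that count has no share to be set against. Without the DNAJC members the median was -0.42. Under the other alternatives (TPM relative to the median gene, counts scaled without the erythrocyte list, a pseudocount of 10, at least 20 reads per sample, without Hspa1a and Hspa1b) 14 to 17 members were higher in VSMCs and 4 to 6 in mcPCs, with medians from -0.32 to -0.22. Among these other alternatives, the shares of all genes past 2-fold were counted only on TPM relative to the median gene, as 13.3% and 22.4%. Of the 55 named members, Dnajc22, Hspa12b and Hspa2 were the only ones past 2-fold that changed direction under the scales and the pseudocount. Genes with few reads, such as Hspb9, Dnajb7 and Dnajc22, are limited by depth. Leaving out each replicate in turn was not run, since the table holds means. No paired analysis was possible because the columns are means of each cell type and carry no replicate codes.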
